A study of Rattus norvegicus with 8 samples.

Results

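Neurosteroids are steroids that brain cells make from cholesterol or from circulating precursors. The genes described here are 10 members of that route: Tspo and Star, which serve the delivery of cholesterol into mitochondria, Cyp11a1, Fdxr and Fdx1, which carry out its side chain cleavage, Srd5a1, the reductase that leads towards allopregnanolone, Hsd17b4, Hsd17b10 and Hsd11b1, dehydrogenases that set the active form of a steroid, and Sts, which removes sulfate from stored steroids. They were chosen by name, as all non-control spots whose gene name equals a member, which gave 12 probes on 21 spots and 10 of the 35199 gene names on the array. RNA came from the dentate gyrus (DG) of 8 adult female Sprague-Dawley rats, all ovariectomized (OVX) and all taken through status epilepticus (SE) evoked by kainic acid. The 4 oil-injected rats are called COS and the 4 rats given estradiol (E2) are called CES. The sample records give kainic acid at 16 mg/kg, SE stopped with pentobarbital after 5 h, and E2 in 4 doses of 2 µg spaced by 24 h, of which 2 preceded SE. The published methods differ, with a lower kainic acid dose, all E2 given before SE, diazepam as the drug that stopped it and conflicting times of tissue collection. Which account holds for these rats is not settled here. OVX removes the ovarian source of E2 in both groups, and since rats without SE are not analysed here, the values compare E2 with oil after SE only.

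In cells that make steroids, cholesterol reaches the inner mitochondrial membrane, where Cyp11a1 cuts its side chain to give pregnenolone with electrons that Fdxr takes from NADPH and Fdx1 hands on. Pregnenolone becomes progesterone, and Srd5a1 reduces progesterone at its 5-alpha position on the way to allopregnanolone, a steroid known to enhance GABA-A receptor currents. In brain, Tspo is best known as the target of tracers for activated glia, since its level rises in microglia and astrocytes after injury.

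Each array carried a pair of rats of the same group in different dyes, replicates 1 and 3 in Cy3 and replicates 2 and 4 in Cy5, and the 4 arrays lay on 1 slide. Of 43379 non-control spots, 45.1% to 61.5% were well above background in the COS rats and 46.2% to 65.7% in the CES rats. CES replicate 2 stood apart from its group: over all quantified genes its mean Pearson correlation was 0.960 with the other CES rats and 0.979 with the COS rats, while the other CES rats correlated at 0.973 to 0.978 with their own group and at 0.934 to 0.940 with COS. Of the 7 markers of dentate granule cells, Prox1 and Tdo2 were well above background in 0 of 8 rats and Dsp in 3 COS rats and 2 CES rats, whereas C1ql2, C1ql3 and Calb1 were so in all 8. A log2 level below is the background-subtracted signal relative to the median of the valid spots of that rat (a foreground at least 2 times the local background), and a difference is CES minus COS. Over the 20787 genes quantified the median difference was -0.25, so each member's difference is also given relative to that median. In whole tissue, fewer cells of a type and less RNA per cell cannot be told apart.

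The probes are 60-base oligonucleotides, and a value holds only for the stretch of transcript that its probe covers. Those of Tspo, Hsd17b10 and Fdx1 are shown because the levels below rest on them, and the second probe of Srd5a1 because it is the one of its pair that was not well above background in every rat, all in the orientation of the array files and with rn4 positions from the same files, which do not say whether a position is exonic or intronic.
Tspo, chr7:121597294-121597974, plus strand: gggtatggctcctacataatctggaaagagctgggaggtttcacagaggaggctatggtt
Hsd17b10, chrX:41491297-41491356, plus strand: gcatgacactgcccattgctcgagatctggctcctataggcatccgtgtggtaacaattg
Fdx1, chr8:55295902-55295961, minus strand: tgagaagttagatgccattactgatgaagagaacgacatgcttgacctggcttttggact
Srd5a1, second probe, chr17:3854451-3854510, plus strand: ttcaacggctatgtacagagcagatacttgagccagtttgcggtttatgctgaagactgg
The Tspo probe is 60 bases long but its match spans 681 bases of rn4, which is a match in more than 1 block. The first probe of Srd5a1 lies at chr17:3878645-3878704.

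Detection separated the members before any comparison. At least 1 spot well above background was found for 8, 9, 8 and 8 of the 10 members in COS replicates 1 to 4 and for 8, 9, 9 and 9 in CES replicates 1 to 4. Tspo, Fdx1, Fdxr, Srd5a1, Hsd17b4, Hsd17b10, Hsd11b1 and Sts were well above background in all 8 rats. Cyp11a1, the side chain cleavage enzyme itself, has 1 probe (chr8:61804584-61804643), which was well above background in 0 of 8 rats, with foregrounds of 52.5 to 119 intensity units over local backgrounds of 25.5 to 48.5. It passed the weaker test of a valid spot in 3 COS and 2 CES rats and was not quantified. Cyp11a1 RNA was therefore not detectable with this probe, which does not show that it was absent.

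Star, the steroidogenic acute regulatory protein, was at the edge of detection too. Its probe (chr16:70640879-70640938) is printed on 10 spots, of which the scanner software marked 2 as outliers. The number of its 10 spots well above background was 0, 1, 0 and 0 in COS replicates 1 to 4 and 0, 10, 1 and 1 in CES replicates 1 to 4. Median foregrounds ran from 76.7 to 146 over backgrounds of 37.75 to 53. The log2 levels were -1.90, -2.68, -1.37 and -2.95 in the COS rats and -1.51, -2.87, -1.86 and -3.44 in the CES rats. The groups overlapped, and limma did not call it (adjusted p = 0.495). No fold is given for Star, because in COS its only spot well above background was one marked as an outlier.

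**Figure D1:**
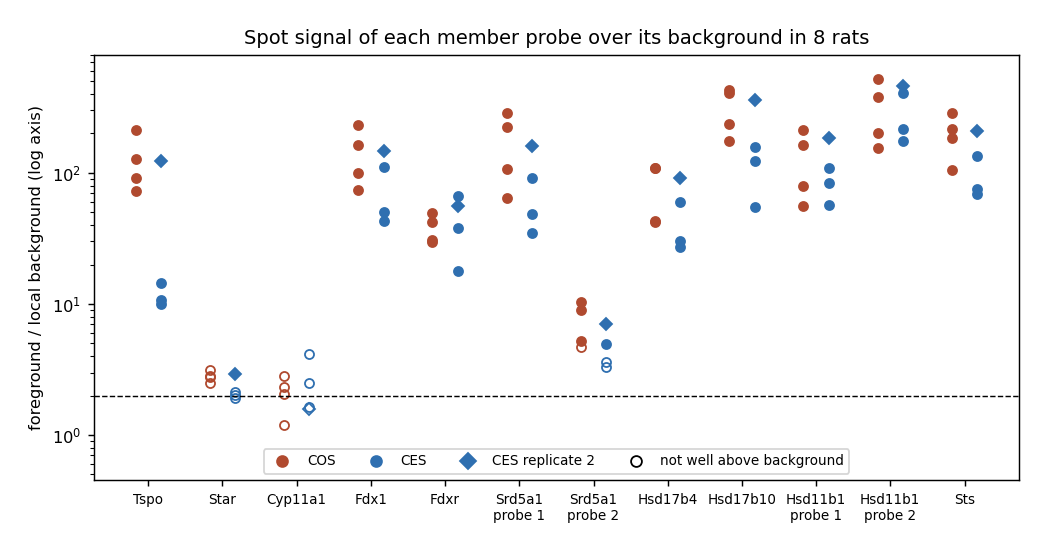
Foreground intensity divided by local background (log axis) for each of the 12 member probes in 4 COS and 4 CES rats. Filled symbols are rats in which most spots of the probe were well above background, diamonds are CES replicate 2, and the dashed line marks the ratio of 2 that defines a valid spot. Star and Cyp11a1 lie near that line, and 3 of the 4 CES rats lie far below COS for Tspo.

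Of the 9 members quantified, 3 were lower in CES and 0 were higher by limma (adjusted p under 0.05), which is 33.3% of them, beside 28.1% of all genes called lower, 5.74% called higher and 33.9% called in either direction. The share of members called was thus near that of all genes. The groups did not overlap, with every CES rat below every COS rat, for 4 of the 9, against 20.3% of all genes, and 22% did not overlap in either direction. The median difference of the members was -0.44, beside -0.25 over all genes. Tspo, Srd5a1 and Hsd17b10 were the members called. Leaving out CES replicate 2 gave 4 members called, with 32.6% of all genes then called lower. After loess and Aquantile normalization, which moved the median of all genes to 0.04, 2 members were called and the lower calls fell to 10.6% of all genes. With scaling over common spots 1 member was called lower, beside 8.55% of all genes, with normexp background correction 1, beside 2.15%, and without COS replicate 3 none, beside 5.2%.

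Tspo, the translocator protein of the outer mitochondrial membrane, showed the widest gap of the members. Its log2 levels were 4.03, 3.41, 3.89 and 3.56 in COS replicates 1 to 4 and 0.07, 2.82, 1.09 and -0.52 in CES replicates 1 to 4. Every CES rat lay below every COS rat, and CES replicate 2 lay nearer to COS than to the 3 other CES rats. The same split was visible before scaling, with foregrounds of 5020, 5640, 3370 and 7800 intensity units in COS against 291, 4070, 436 and 352 in CES.

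The mean log2 level of Tspo was 3.72 ± 0.29 in COS and 0.86 ± 1.46 in CES (SD, n = 4 each). The difference was -2.86 (SE 0.60), a level 7.25-fold lower in CES, or -2.61 against the all-gene median (limma, adjusted p = 0.00774; two-sided exact permutation p = 0.0286, the smallest that 4 against 4 allows). Here and below that permutation took the rats as independent and ignored the arrays, each of which held rats of a single group. Only 0.433% of the 20787 genes had a lower difference. Without CES replicate 2 the difference was -3.63 (adjusted p = 7.03e-06), and after loess and Aquantile it was -2.10 (adjusted p = 0.0409). The call was lost without COS replicate 3 (adjusted p = 0.0695), although the difference stayed at -2.77.

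Srd5a1, which encodes steroid 5-alpha-reductase, was measured by 2 probes whose signals were averaged. Its log2 levels were 3.35, 3.30, 2.98 and 3.14 in the COS rats and 2.03, 2.69, 2.24 and 1.80 in the CES rats. The lowest COS rat, replicate 3, lay above the highest CES rat, which was again replicate 2. The group means were 3.19 ± 0.17 and 2.19 ± 0.38 (SD, n = 4 each), a difference of -1.0 (SE 0.21), which is 2.00-fold lower in CES (limma, adjusted p = 0.00832; exact permutation p = 0.0286).

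Against the all-gene median the difference of Srd5a1 was -0.75. The first probe gave a difference of -1.02 and was well above background in all 8 rats. The second probe differed by -0.55 and cleared its background well in 3 of the COS rats and 2 of the CES rats, so the average follows the first. The call did not hold after loess and Aquantile (adjusted p = 0.0567), with scaling over common spots, those valid in every rat (0.0714), or without COS replicate 3 (0.0528). The differences were then -0.61, -0.61 and -1.06. Srd5a1 was called in 17 of 24 alternatives in all.

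The genes of the family beside Srd5a1 were at the edge of detection. Srd5a2, the reductase isoform known from male reproductive tissue, stood well above background in 1 rat of COS and 2 of CES and differed by -0.64 (limma, adjusted p = 0.0605), and Srd5a3 is not a gene name on the array. Akr1c14, a 3-alpha-hydroxysteroid dehydrogenase that completes the synthesis of allopregnanolone, differed by -0.89 (SE 0.26; limma, adjusted p = 0.0279). It was well above background in 3 COS rats and 1 CES rat, its groups overlapped, and the call was lost after loess and Aquantile (adjusted p = 0.143) and without any 1 COS rat or CES replicate 1 (highest adjusted p = 0.121).

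Among the dehydrogenases of the 17-beta family, Hsd17b10 and Hsd17b4 were members. Hsd17b10 is a mitochondrial enzyme that oxidizes steroids, E2 and allopregnanolone among them, and also short branched acyl chains. Its log2 levels were 5.24, 5.18, 5.30 and 4.91 in COS and 4.61, 4.57, 4.55 and 4.48 in CES. The 4 CES rats lay close together, replicate 2 included, and all lay below COS. The means were 5.16 ± 0.17 and 4.55 ± 0.05 (SD, n = 4 each), a difference of -0.61 (SE 0.15), 1.52-fold lower in CES (limma, adjusted p = 0.0152; exact permutation p = 0.0286), or -0.36 relative to all genes.

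Scaling over common spots gave a difference of -0.21 for Hsd17b10 and no call (adjusted p = 0.239). Normexp background correction gave -0.41 (0.676) and the authors' log2 table -0.23 (0.214), also without a call. The call was lost too without COS replicate 1 (0.0581), COS replicate 3 (0.0819, difference -0.56) or CES replicate 1 (0.0590). It held after loess and Aquantile at -0.31 (adjusted p = 0.0491), and in 16 of 24 alternatives in all. Hsd17b4, a peroxisomal enzyme of fatty acid oxidation that also converts E2 to estrone, had log2 levels of 3.07, 2.86, 3.13 and 2.62 in COS and 2.45, 2.69, 2.85 and 2.34 in CES. The groups overlapped. The difference was -0.34 (SE 0.17; limma, adjusted p = 0.157) and took the opposite sign, 0.04, after loess and Aquantile.

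**Figure D2:**
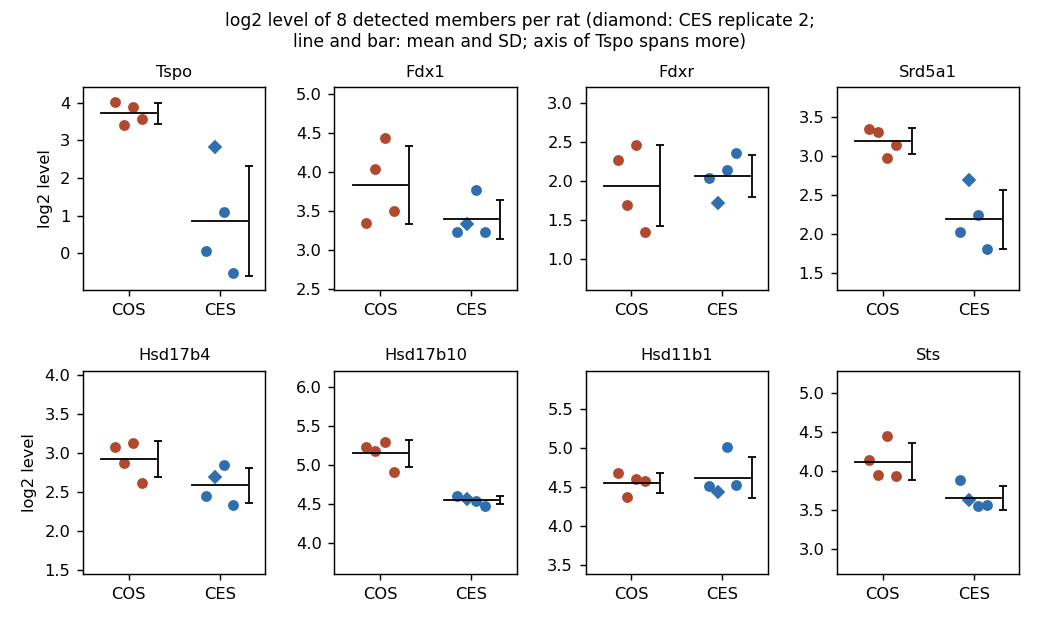
log2 level of the 8 detected members in each rat, with COS in red, CES in blue and CES replicate 2 as a diamond, lines for group means and bars for the SD (n = 4). Tspo has a wider axis than the others. The groups do not overlap for Tspo, Srd5a1, Hsd17b10 and Sts.

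Sts, the sulfatase that frees steroids such as estrone and dehydroepiandrosterone from their sulfates, did not pass the test. Its log2 levels were 4.14, 3.95, 4.45 and 3.94 in COS and 3.88, 3.62, 3.55 and 3.56 in CES. The groups did not overlap, but the highest CES rat, replicate 1, lay just under the lowest COS rat. The means were 4.12 ± 0.24 and 3.65 ± 0.15 (SD, n = 4 each), a difference of -0.47 (SE 0.16; limma, adjusted p = 0.0515; exact permutation p = 0.0286). Against the all-gene median it was -0.21. Without CES replicate 2 it was called (adjusted p = 0.0467), as it was in 3 of 24 alternatives in all.

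The electron carriers of side chain cleavage gave no call. Fdx1, the ferredoxin, had log2 levels of 3.34, 4.03, 4.43 and 3.50 in COS and 3.23, 3.33, 3.77 and 3.23 in CES. Its COS rats spread widely, and CES replicate 3 lay within their range. The difference was -0.44 (SE 0.26; limma, adjusted p = 0.209). Fdxr, the reductase that charges ferredoxin, had levels of 2.26, 1.69, 2.46 and 1.34 in COS and 2.03, 1.71, 2.13 and 2.36 in CES, with a difference of 0.12 (SE 0.23; adjusted p = 0.704). All CES rats lay within the COS range. Fdx1l, a second ferredoxin outside the members, differed by -0.06 (adjusted p = 0.801).

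Hsd11b1, which regenerates active corticosterone from its inactive keto form, had log2 levels of 4.68, 4.38, 4.60 and 4.58 in COS and 4.51, 4.45, 5.01 and 4.53 in CES. CES replicate 3 was the highest of all rats and the other 7 overlapped. The difference was 0.06 (SE 0.17; limma, adjusted p = 0.792). Its 2 probes, at chr13:109063624-109063683 and chr13:109063878-109063937, differed by -0.18 and 0.13. Hsd11b2, which runs the opposite reaction, was well above background in 2 COS rats and 1 CES rat and differed by -0.49 (adjusted p = 0.135). H6pd, which supplies NADPH to Hsd11b1, was well above background in 0 of 8 rats.

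**Figure D3:**
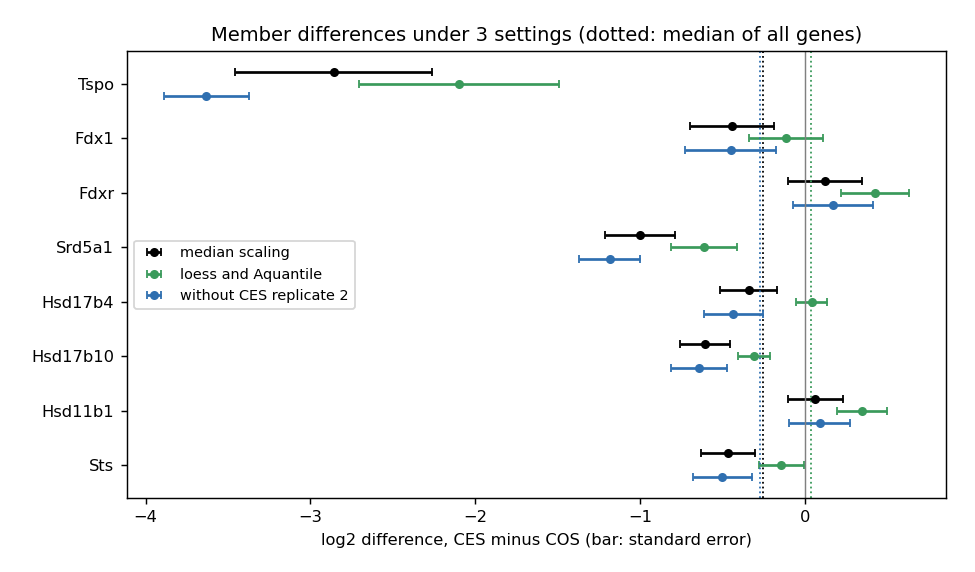
log2 difference (CES minus COS) of the 8 detected members with its standard error under median scaling, after loess and Aquantile, and without CES replicate 2. Dotted lines mark the median of all genes under each setting, which moves from -0.25 to 0.04 after loess. Tspo lies far below these lines in every setting shown, and Hsd17b4, Fdx1 and Sts lie near them.

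Because Tspo is used as a marker of glia, microglial markers were read in the same rats. Of 10 markers, all quantified, 5 were lower in CES and 1 was higher, beside 28.1% and 5.74% of all genes. Cd68 differed by -2.19, Itgam by -1.92, C1qb by -1.34, Csf1r by -0.92 and C1qa by -0.86, while P2ry12, a receptor of surveying microglia, was higher by 0.94. Aif1, which encodes the common marker Iba1, differed by -0.32 and was not called, and it took either sign over the alternatives. After loess and Aquantile 2 markers were lower and 1 was higher, beside 10.6% and 15.6% of all genes. Without COS replicate 3 the counts were 1 and 1, beside 5.2% and 1.31%. The summed linear level of the 10 ran from 288 to 388 in COS and from 118 to 220 in CES, where CES replicate 2 held the highest value. Their part in the result for Tspo was not tested.

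Since levels of different probes cannot be set against each other, Tspo and each marker were expressed in every rat relative to their own mean in COS. On that log2 scale Tspo stood at -3.66, -0.90, -2.63 and -4.24 in CES replicates 1 to 4. The lowest of the 10 markers stood at -2.58, -1.10, -2.19 and -2.94 and the highest at 1.01, 0.38, 1.36 and 1.05. The -1.10 in CES replicate 2 and the 1.01 in CES replicate 1 are those of Tmem119. That marker was well above background in 0 COS rats and 1 CES rat, so its values are near background. In CES replicates 1, 3 and 4 Tspo lay below all 10 markers, of which Cd68 and Itgam were the nearest, and in CES replicate 2 it lay above 2 of them. The markers moved both ways, and these values of single rats carry no test. Of the 7 astrocyte markers 3 were called higher and 1 lower, beside 5.74% and 28.1% of all genes. The higher ones were Gja1 (1.42), Aldh1l1 (1.23) and Aldoc (0.92), and the lower one was S100b (-2.25). The median difference of the 7 was 0.23. The 7 summed to 159 to 181 in COS and 158 to 277 in CES. Gfap differed by -1.22 and was not called (limma, adjusted p = 0.0576), though every CES rat lay below every COS rat.

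**Figure D4:**
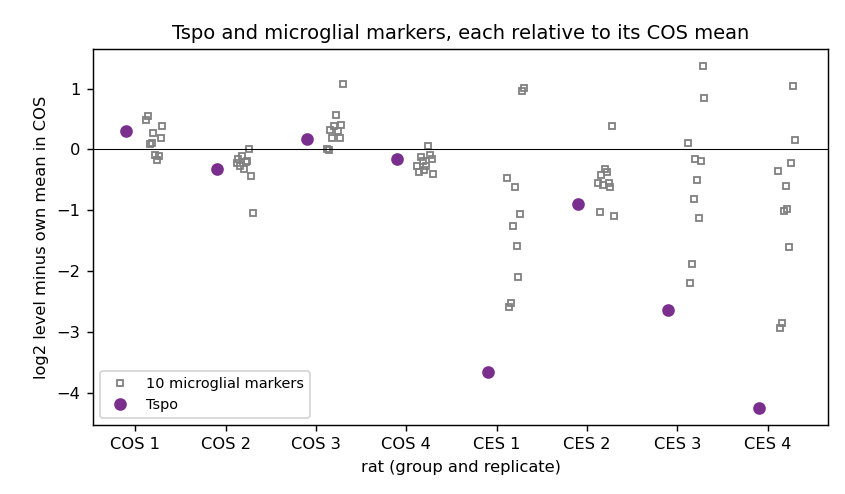
log2 level of Tspo (filled circles) and of each of 10 microglial markers (open squares) in the 8 rats, each minus its own mean over the 4 COS rats (line at 0). In CES replicates 1, 3 and 4 Tspo lay further below its COS mean than any of the 10 markers.

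Dbi, the diazepam-binding inhibitor and a ligand of Tspo, had a difference of 0.41 and was not called (limma, adjusted p = 0.461). CES replicate 2, at 4.32, lay below the 3 other CES rats, which ran from 5.86 to 6.53. The genes whose levels ran most like that of Tspo over the 8 rats were ENSRNOT00000005230 (Pearson r = 0.998), Plp2 (0.997) and Pla1a (0.996). Those most like Srd5a1 were Fhod1 (0.990), Sec23b (0.989) and Kctd12 (0.988), and those most like Hsd17b10 were Mapk15 (0.994), Ahi1 (0.991) and Gas8 (0.990). These correlations are descriptions over 8 rats that include the group difference.

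Around the members, a list of 70 other steroid genes had 60 on the array and 41 quantified. Of these, 10 (24.4%) were lower in CES and 4 were higher, beside 28.1% and 5.74% of all genes, so lower calls were no more frequent than over the array. The median difference was -0.23, beside -0.25. After loess and Aquantile the counts were 3 lower and 5 higher, beside 10.6% and 15.6% of all genes. Of 10 quantified genes of cholesterol delivery and Tspo partners, 2 were lower, and among them Atad3a, a protein of the inner mitochondrial membrane, differed by -1.19 (SE 0.18; limma, adjusted p = 0.00384). The COS rats ran from 4.43 to 4.97 and the CES rats from 3.36 to 3.79, and the call held in 8 of 8 fits that left out 1 rat. The other, Stard4, named after its value was seen, differed by -0.58 (adjusted p = 0.0443, overlapping groups).

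Of 5 quantified mitochondrial P450 and ferredoxin genes, 2 were lower, beside 28.1% of all genes. Cyp27b1, which makes the active form of vitamin D, differed by -1.36 (SE 0.28; limma, adjusted p = 0.00757), a call lost without COS replicate 3 (0.0667). After loess and Aquantile it was -0.65 (adjusted p = 0.0451). Cyp11b1, a late enzyme of corticosteroid synthesis with close paralogs that its probe might also bind, differed by -1.27 (SE 0.42; adjusted p = 0.0394) but was well above background in 2 of 4 CES rats, and its call was lost after loess and Aquantile (-0.45, adjusted p = 0.222) and in 5 of 8 fits that left out 1 rat, being those without any 1 of the COS rats or CES replicate 1. The other mitochondrial P450s of the route that reached no quantification were Cyp11b2 and Cyp24a1.

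Of 7 quantified microsomal genes, 2 were higher and 1 was lower, beside 5.74% and 28.1% of all genes. Cyp46a1, the neuronal cholesterol 24-hydroxylase, was higher in CES by 1.34 (SE 0.35; limma, adjusted p = 0.0171), with COS at -0.93 to -0.21, where 3 of 4 rats were well above background, and CES at 0.19 to 2.21. Its call was lost without COS replicate 1, 3 or 4 (highest adjusted p = 0.0848). Cyp7b1, named here after its value was seen as the other higher gene, differed by 0.88 (adjusted p = 0.0189) with overlapping groups, a call lost without COS replicate 3 or 4 or CES replicate 1 (highest adjusted p = 0.0944). The lower one, Hsd3b7, differed by -0.75 (adjusted p = 0.0217, overlapping groups, also named afterwards) and was well above background in 3 rats of COS and 2 of CES. Some enzymes that act between pregnenolone and the androgens and estrogens were near background. Hsd3b1 was well above background in 0 of 8 rats, Cyp17a1 in 1 COS rat, and Cyp19a1, the aromatase, in 2 COS rats and 0 CES rats.

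Of 6 quantified reductases and 3-alpha dehydrogenases, 2 were lower and 1 was higher, beside 28.1% and 5.74% of all genes. The higher one was Akr1c19 at 0.89 (limma, adjusted p = 0.0185, overlapping groups, named after its value was seen). Of the COS rats, 2 of 4 showed it well above background, and each CES rat did. Its call was lost in 4 of 8 fits with 1 rat left out, those without COS replicate 1, 3 or 4 or CES replicate 1 (highest adjusted p = 0.106). The lower ones were Akr1c14 and Rdh5, the latter at -1.50 (adjusted p = 0.0240) with overlapping groups and well above background in 1 of 4 CES rats. Of 6 other 17-beta dehydrogenases, 3 were lower and 1 was higher, beside the same shares of all genes. Hsd17b12, which acts mainly in fatty acid elongation, differed by -1.05 (SE 0.18; limma, adjusted p = 0.00456), and Hsd17b1, which reduces estrone to E2, by -0.91 (SE 0.22; adjusted p = 0.0144), which became -0.30 after loess and Aquantile, where the call was lost (adjusted p = 0.103), as it was without COS replicate 3 or CES replicate 1 (highest adjusted p = 0.0863). The third lower one, Hsd17b7, differed by -0.92 (adjusted p = 0.0300) with overlapping groups and was well above background in 3 of 4 rats of each group. The higher one was Hsd17b13 at 0.57 (adjusted p = 0.0479, overlapping groups, also named after its value was seen), and that call held in 2 of 8 fits with 1 rat left out, those without COS replicate 4 or CES replicate 2. The call of Hsd17b12 held in 8 of 8. Of 6 genes of sulfation and desulfation none was called, and Sumf1, which activates sulfatases such as Sts, differed by -0.22 (adjusted p = 0.364).

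**Figure D5:**
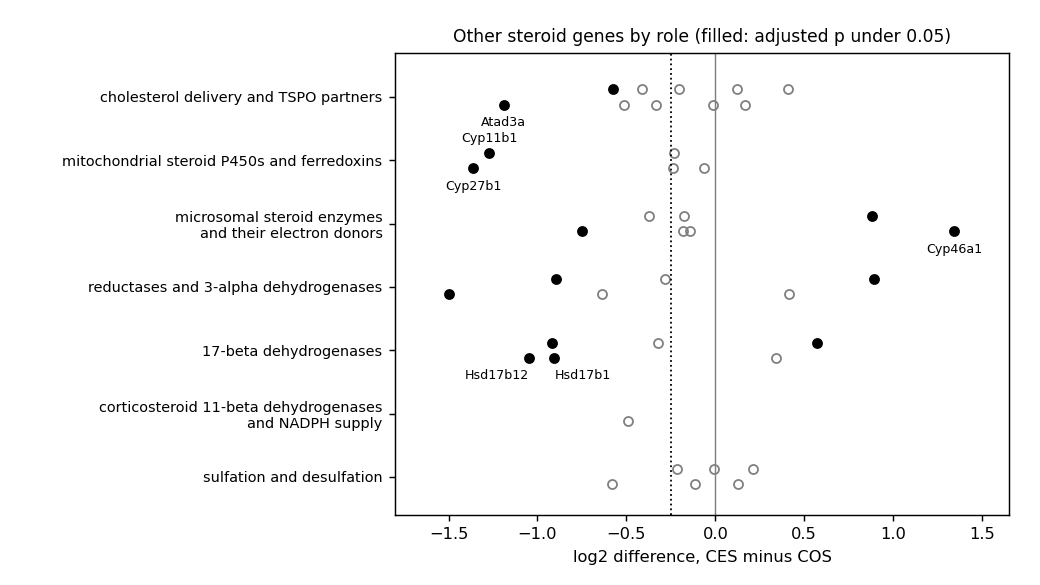
log2 difference (CES minus COS) of the 41 quantified genes of the steroid list outside the members, by role, filled where the limma adjusted p was under 0.05 and named where the groups also did not overlap. The dotted line is the median of all genes. Most calls lie to the left, with 10 lower and 4 higher under median scaling.

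Promoters from 250 bases before to 50 bases after the gene start were held in the RefSeq table of GRCr8 for 7 of the 10 members, all but Tspo, Star and Hsd11b1. The estrogen response element, GGTCA and TGACC with any 3 bases between them, was found on either strand in 0 of the 7 and in 0.0269% of 33469 promoters, and the AP-1 site TGANTCA in 0 of the 7 and 7.33%. The cAMP response element TGACGTCA was in 1 of the 7, that of Sts, and in 1.83% of all. The GC box GGGCGG was in 6 of the 7, all but Hsd17b10, and in 33.1% of all. The promoters of the pair of called members in the table are shown, with each GC box in capitals on either strand.
Srd5a1, GRCr8 chr1:35514664-35514963, plus strand: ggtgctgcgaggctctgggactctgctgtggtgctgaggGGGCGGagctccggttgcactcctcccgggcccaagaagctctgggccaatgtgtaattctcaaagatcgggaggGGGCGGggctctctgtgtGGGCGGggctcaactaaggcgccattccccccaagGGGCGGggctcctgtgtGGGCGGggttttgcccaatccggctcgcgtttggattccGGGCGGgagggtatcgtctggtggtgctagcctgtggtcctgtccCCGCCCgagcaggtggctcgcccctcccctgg
Hsd17b10, GRCr8 chrX:24568301-24568600, plus strand: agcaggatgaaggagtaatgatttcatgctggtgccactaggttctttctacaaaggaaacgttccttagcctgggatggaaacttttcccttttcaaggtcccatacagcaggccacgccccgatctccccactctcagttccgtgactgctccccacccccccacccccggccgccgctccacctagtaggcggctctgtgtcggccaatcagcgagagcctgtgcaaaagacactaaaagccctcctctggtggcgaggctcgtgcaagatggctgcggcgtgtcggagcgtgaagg
The Srd5a1 promoter holds 7 GC boxes and that of Hsd17b10 holds 0. Whether GC boxes bear on the differences was not tested. A match is a string of letters in this window and does not show that a factor binds there.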

How the data were processed

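Total RNA from the DG of 8 rats was labeled with Cy3 or Cy5 and hybridized to 4 2-colour Agilent arrays on 1 slide. The deposited scanner files give an intensity per spot and per local background, which the authors extracted with Agilent Feature Extraction 10.7.3.1 before any normalization. The authors also deposited a log2 table, in which every column differs from the log2 scanner signal by a constant and has a median of 0, and which was used as an alternative. Groups, replicates and dyes came from the labels.

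Background medians were subtracted from mean signals, and each channel was scaled to the median of its valid spots (foreground at least 2 times background, not marked as an outlier). Values were then averaged over those spots of a gene name that were valid in every rat, and log2 was taken. The groups were tested by limma 3.58.1 (R 4.3.3, statmod 1.5.0, data.table version 1.17.8) with a fixed dye term and a random block for the array, which is nested in the group (consensus correlation 0.0044), two-sided, Benjamini-Hochberg over 20787 genes, threshold 0.05. That correlation varied from -0.48 without the dye term to 0.58 with normexp, and was 0.24 with loess and Aquantile. The small value of the main fit therefore does not show that rats of an array were independent. In simulated data of this layout the share of false calls was above the threshold, and smaller changes were recovered only in part. Single members were also compared by exact permutation of rats. It ignored dye and array, so its p can be too small where rats of an array are alike. The median standard error was 0.20 (log2), no spot was saturated, and the number of arrays limits the precision. Other tools were Python 3.11.15, numpy 2.4.6, pandas 2.3.3, scipy 1.17.1 and matplotlib 3.10.9.

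All 10 members are named. Of the steroid list, up to 4 genes a role are named by the size of their difference among genes called with non-overlapping groups, together with a fixed set that shares a reaction with a member, and for each called member the 3 genes most like it over the rats. The members and lists were chosen with earlier results of these data known. Marker lists for 11 cell types, written from general knowledge, were read in the same fit. Alternatives were normexp background (offset 50), the processed signal, loess with Aquantile, quantile normalization, scaling over common spots (valid in every rat), no filter, a foreground of at least 3 times background, spots well above background in all rats, a fit without the array block, a fit without dye, replicate number as a block, only the brightest probe, names through RefSeq accessions, the methods' t-test, the authors' log2 table, and each rat left out. Keeping outlier spots was added after the data were seen. Same-numbered rats deviated together (correlations of 0.332, 0.214, 0.306 and 0.346), but each number lies within 1 dye, and after removing the dye these were -0.06 and -0.04, so the numbers were not taken to pair rats. Positions are those of rn4 in the files.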

Additional observations from a re-analysis of the deposited data

Results flagged for a closer look

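In 2 of the 30 groups of 4 rats examined, 1 rat lay far from the other 3 by Dixon's test, which chance alone gives in about 1 of 20 groups. The log2 level of Hsd11b1 was 5.01 in CES replicate 3, against 4.45 to 4.53 elsewhere in CES. That of Hsd17b12 was 3.22 in COS replicate 4, against 3.58 to 3.64 elsewhere in COS.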

How the results depend on the processing

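The number of members called was 3 and fell to 1 with normexp, with scaling over common spots and with the deposited log2 table. With the methods' t-test it was 0 (4 at an unadjusted p under 0.05, by limma also 4), and it ran from 0 (without COS replicate 3) to 4 with 1 rat left out. Here that t-test was adjusted by Benjamini-Hochberg over all genes. It lacked the fold cut-off and the correction for redundant spots of the published methods, so its counts are not those of the authors' rule. Tspo was called in 22 of 24 alternatives, Srd5a1 in 17 and Hsd17b10 in 16, all lower in each. Over all genes the 7042 calls became 575 with normexp, 3098 with no filter, 3844 where foregrounds had to reach 3 times background, 0 with the methods' t-test (6098 at an unadjusted p under 0.05, by limma 9369), and 1353 (without COS replicate 3) to 8570 (without CES replicate 2) with 1 rat left out. They were 3919 without COS replicate 1 and 2744 without CES replicate 1. Without COS replicate 3 the consensus correlation within an array was 0.21 and the median standard error 0.24. In the main fit these were 0.0044 and 0.20. The split of 1194 higher and 5848 lower turned to 3249 and 2207 with loess and Aquantile, 3285 and 2434 with quantile normalization, 3380 and 1778 with scaling over common spots, and 3210 and 1923 in the deposited table, which moved the median of all genes to 0.04, 0.04, 0.14 and 0.12. The main scaling rested on each rat's own valid spots, which were 74.6% to 88.9% of spots in COS and 70.7% to 81.5% in CES. Scaling over common spots moved all genes of a rat by the same amount. Tspo then differed by -2.46 and Sts by -0.07, still -2.61 and -0.21 against the all-gene median. The 14 calls of the steroid list became 0 with normexp, 8 with loess and Aquantile, quantile normalization or the deposited table, 9 with scaling over common spots, 3 with no filter, 6 where foregrounds had to reach 3 times background or for spots well above background in all rats, 0 with the methods' t-test, and 3 (without COS replicate 3) to 16 (without CES replicate 2) with 1 rat left out. The difference of Hsd17b4 changed sign to 0.042 with loess and Aquantile, 0.036 with quantile normalization, 0.054 with scaling over common spots and 0.021 in the deposited table. With 1 rat left out, that of Fdxr ran from -0.078 (without CES replicate 4; -0.044 without COS replicate 4) to 0.27, and that of Hsd11b1 from -0.057 (without CES replicate 3) to 0.15. Of the other values of single members, 165 kept their side of the threshold, 17 lost it and 3 gained it, in the same direction. The cause was not tested. The replicate number as a block gave 7690 calls over all genes, 3 members and 15 genes of the list, and changed no call of a member.

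Limits are the 4 rats a group, CES replicate 2, 1 probe for 8 of the 10 members, Cyp11a1 and Star near background, and the unsettled time of tissue collection.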

Other observations

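The other marker lists were read as counts and summed linear levels. Of 5 quantified markers of dentate granule cells 3 were lower in CES, beside 28.1% of all genes. C1ql2 differed by -1.23 and was well above background in all rats, Dsp differed by -1.23 and was so in 3 COS and 2 CES rats, and Tdo2 was so in 0 of 8, so it has no fold. The list summed to 21.2 to 41.2 in COS and 21.5 to 35.6 in CES. Of 4 markers of pyramidal cells outside the DG 3 were higher, beside 5.74% of all genes (sums of 40.5 to 60.2 and 41.4 to 65.7). Of these 3, Pou3f1 differed by 2.23 (limma, adjusted p = 0.00343) and Wfs1 by 0.98 (0.00942). Both were well above background in all rats, and their groups did not overlap. Fibcd1 was well above background in no COS rat and in 2 of CES. The remaining marker, Rgs14, differed by -0.11 and was not called. Its level was the highest of the 4, so the sums mostly reflect it. Of 5 interneuron markers 2 were lower (205 to 370 and 76 to 167), beside 28.1% of all genes. Of 5 endothelial markers 2 were lower and 1 was higher (21.5 to 28.1 and 18.7 to 26.9), beside 28.1% and 5.74%. Of 6 meningeal markers 1 was lower and 1 was higher (21.1 to 94.4 and 25.8 to 31.0), beside the same shares of all genes. The 7 oligodendrocyte markers (243 to 449 and 333 to 507), the 6 of choroid plexus (14.4 to 676 and 18.4 to 212), the 3 of blood (93.2 to 243 and 66.1 to 135) and the 1 of neutrophils (0.128 to 0.401 and 0.150 to 0.613) gave no call by limma. Their part in the differences of the steroid genes was not tested.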
